A study of Homo sapiens with 6 samples.

Results

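Eukaryotic translation initiation and elongation factor genes were followed through loss and restoration of METTL16, an RNA methyltransferase, in NOMO-1 cells, an established human monocytic line of acute myeloid leukaemia. The genes were taken by symbol from a table of 15059 genes, as every symbol that begins with EIF or EEF and a digit, without the aminoacyl-tRNA synthetase partner EEF1E1 and the eIF2 kinases. This gave 62 genes, of which 60 passed the filter on low values and 56 were protein coding. The other 6 carried the name of a factor but encode none, namely the antisense RNAs EIF1B-AS1, EIF3J-AS1 and EIF1AX-AS1, the pseudogenes EEF1DP3 and EIF3IP1, and the read-through transcript EEF1E1-BLOC1S5. EIF1B-AS1 and EIF3IP1 were the 2 that did not pass the filter.

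RNA was sequenced from 3 groups with 2 libraries each. Rescue cells carried a guide against METTL16 and overexpressed METTL16 (sgMETTL16+OE-METTL16), knockout cells carried the same guide and an empty vector (sgMETTL16+EV), and control cells carried a non-targeting guide and the empty vector (sgNS+EV). All groups were NOMO-1 cells transduced with lentivirus and kept in puromycin at 2 µg/ml for 1 to 2 weeks. The rescue was a parallel group and not knockout cells followed over time, and the labels name neither clones nor separate cultures, so p-values measure the spread between these libraries, which may be technical.

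Initiation factors bring the initiator tRNA and the small ribosomal subunit to a messenger RNA. eIF2 carries the initiator tRNA as a complex with GTP and is recharged by its exchange factor eIF2B. eIF3 is a large scaffold on the small subunit, and eIF4F binds the messenger's cap through eIF4E, unwinds its leader through the helicase eIF4A and holds both through the scaffold eIF4G. eIF1 and eIF1A govern start codon selection, eIF5 and eIF5B act at start codon recognition and subunit joining, and the elongation factors eEF1 and eEF2 deliver aminoacyl-tRNA and move the ribosome along.

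The value for each gene and library was an RSEM abundance, scaled for transcript length by the authors, here called the signal. Log2 differences are of signal + 1, and a gene is said to have risen or fallen where the Benjamini-Hochberg adjusted p of a limma fit over 12734 genes was at most 0.05. METTL16 had a signal of 12.3 and 12.1 in rescue, 6.05 and 5.83 in knockout, and 9.89 and 9.63 in control, so that it stood lowest in the knockout libraries (log2 -0.63 against control, adjusted p = 4.76e-05). It was higher in rescue than in knockout (log2 0.93, adjusted p = 3.18e-06). Both rescue libraries lay above both control libraries, but that difference did not pass (log2 0.30, adjusted p = 0.175). Markers of the cell line were present in the table for 8 of the 10 genes listed, while 0 of 3 T cell and 0 of 3 fibroblast markers were, and the B cell markers summed to at most 2.85. Signals summed to 597160 to 681928 per library, and control library 2 lay lower than the rest (median log2 deviation of -0.10, against 0.0024 to 0.040 in the others).

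In knockout cells, translation factor genes were more often lower than higher. Of the 60 tested, 22 fell and 5 rose against control, and the median log2 difference was -0.12. Over all 12734 genes tested, 13.5% fell and 26.2% rose, with a median of 0.067. Among genes with a mean signal of at least 20, where most factors lie, 18 of 44 factor genes fell and 3 rose, against 20.1% lower and 30.5% higher of all 3710 such genes. The differences were small, from -0.61 to 0.40, and 46 of the 60 lay below 0. The signals of the 62 genes summed to 8689 and 8809 in rescue, 7664 and 7458 in knockout, and 8620 and 8115 in control, so that both knockout libraries were below the other 4. In bulk RNA, fewer cells of a kind and less RNA per cell cannot be told apart. The summed signal of the 8 monocytic markers was 337 to 345 in rescue, 451 to 452 in knockout and 275 to 293 in control. Of the 8, ITGAM did not follow the sum, with 4.98 and 5.39 in rescue, 5.08 and 4.54 in knockout, and 5.65 and 4.79 in control. The markers were not tested one by one here, and their part in the factor genes' differences was not tested.

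By complex, the elongation factor group had 6 of 10 genes lower and 0 higher (median log2 -0.21). Those 10 include the pseudogene EEF1DP3 and the read-through EEF1E1-BLOC1S5, and of the 8 coding genes 6 were lower (median -0.22). The 8 hold the kinase EEF2K and the methyltransferases EEF1AKMT1 and EEF2KMT beside the elongation factors. The eIF3 group had 6 of 14 lower and 0 higher (median -0.13), and the eIF2 and eIF2B group had 3 of 10 lower and 0 higher (median -0.068, which moved to -0.14 under median centring and -0.13 under quantile normalization, and ran from -0.13 to -0.0080 without 1 library). The eIF4 group was split, with 5 of 15 lower and 4 higher, and its median of 0.022 turned to -0.047 when libraries were centred on their medians and to -0.016 under quantile normalization. Under median centring 37 factor genes fell, 9 of 10 in the elongation group and 11 of 14 in eIF3, and all genes split into 3208 lower and 3080 higher in place of 1723 and 3333. Under quantile normalization 35 factor genes fell, 6 of 10 and 11 of 14 in those groups, with 3187 lower and 3146 higher of all genes. Without the trend option of limma 16 factor genes fell, with 1545 lower and 3166 higher of all genes. Whether the complexes differ from each other was not tested.

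**Figure D1:**
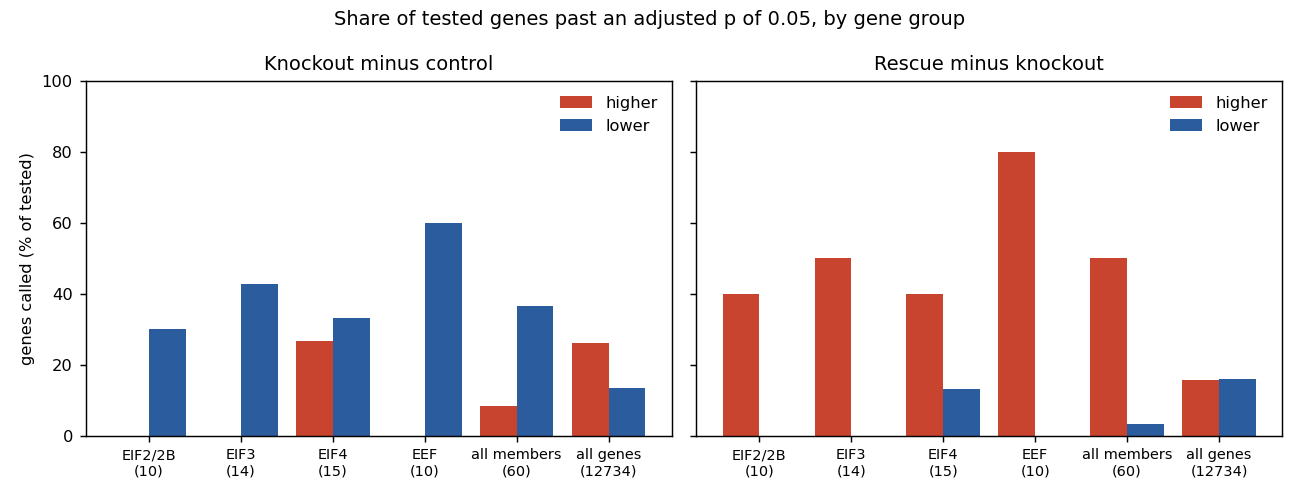
Share of tested genes past an adjusted p of 0.05, in percent, for the 4 complexes, all translation factor genes and all genes, with the number of genes tested in brackets; red bars are higher and blue bars lower. In knockout minus control, 36.7% of factor genes were lower against 13.5% of all genes, and in rescue minus knockout 50% were higher against 15.6%.

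Messenger RNAs of several translation factors start with a C and a run of pyrimidines, the 5′ terminal oligopyrimidine tract through which the mTORC1 pathway governs their translation. Sequence before and after annotated starts was available from RefSeq (GRCh38.p14) for 48 of the 62 genes. A tract was counted where the base at an annotated start was a C followed by at least 4 bases that were each C or T, read on the gene's own strand at that position only. Of the 48 genes, 12 had one at an annotated start (25%), against 7.47% of 9121 tested genes with an entry and 10.4% of those with a mean signal of at least 20. The rule was set after these sequences were seen, and a match is a description of the letters, not a mapped start. The 60 bases shown run from 40 before the annotated start, with the tract in capitals, first for 5 genes that fell in knockout and then for EEF1A1, EIF3F and EIF4B, which did not pass.
EIF3K, chr19:38619148-38619207, plus strand: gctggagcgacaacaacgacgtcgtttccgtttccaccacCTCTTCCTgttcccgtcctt
EIF2S3, chrX:24054916-24054975, plus strand: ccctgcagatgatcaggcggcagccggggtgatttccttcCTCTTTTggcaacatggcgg
EIF4A2, chr3:186783537-186783596, plus strand: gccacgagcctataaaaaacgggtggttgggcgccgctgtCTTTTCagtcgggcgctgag
EEF1B2, chr2:206159855-206159914, plus strand: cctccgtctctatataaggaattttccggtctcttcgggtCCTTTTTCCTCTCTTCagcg
EEF2, chr19:3985444-3985503, minus strand: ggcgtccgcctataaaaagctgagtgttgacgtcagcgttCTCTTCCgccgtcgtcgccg
EEF1A1, chr6:73521013-73521072, minus strand: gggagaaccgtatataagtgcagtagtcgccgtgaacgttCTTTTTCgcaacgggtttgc
EIF3F, chr11:7987297-7987356, plus strand: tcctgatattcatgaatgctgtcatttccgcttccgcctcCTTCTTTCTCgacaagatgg
EIF4B, chr12:53006416-53006475, plus strand: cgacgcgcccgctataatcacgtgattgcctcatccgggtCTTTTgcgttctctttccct

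For contrast, the same window is given for EIF2B5, which fell, and for EIF4A3, which rose; both have other letters at the annotated start, and no capitals are marked.
EIF2B5, chr3:184135318-184135377, plus strand: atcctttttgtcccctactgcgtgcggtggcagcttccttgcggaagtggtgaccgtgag
EIF4A3, chr17:80147109-80147168, minus strand: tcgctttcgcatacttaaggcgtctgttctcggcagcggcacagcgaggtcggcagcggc

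Of the 12 genes with a tract, 6 fell in knockout and 0 rose (median log2 -0.14), namely EIF3K, EIF2S3, EIF4A2, EEF1B2, EEF2 and EIF3D. The others were EEF1A1, EIF2A, EIF2D, EIF3F, EIF3M and EIF4B, with log2 differences from -0.12 to -0.01. Of 35 tested factor genes with an entry and no tract, 10 fell and 5 rose (median -0.11). Over all 681 tested genes with a tract, 18.5% fell and 24.1% rose (median 0.015). In rescue minus knockout, 7 of the 12 were higher and 0 lower, against 17 and 2 of the 35, and against 22% and 13.8% of the 681. A list of 9 factor genes known for such tracts was written from textbook knowledge, with earlier results of these data known. It had 6 lower and 0 higher in knockout (median -0.20). This list only partly overlaps the 12, sharing EEF1A1, EEF1B2, EEF2, EIF3F and EIF4B. Of its other genes, all of which fell, EEF1G had an entry and no tract by the rule used here, and EEF1D, EIF3E and EIF3H had no entry. The difference between factor genes with and without a tract was not tested.

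Among the genes with an EIF1 symbol, EIF1 fell and EIF1AD rose. EIF1, the fidelity factor of start codon choice, had a signal of 219 and 218 in rescue, 198 and 197 in knockout, and 240 and 235 in control. Its 3 groups did not overlap, and knockout was lower than control by a log2 difference of -0.27 (adjusted p = 0.000847) while rescue lay between them. EIF1AD (chromosome 11, 65996545 to 66002176, minus strand), a protein with an eIF1A-like domain, had 12.0 and 13.6 in rescue, 13.5 and 14.4 in knockout, and 11.2 and 9.71 in control. Both knockout libraries were above both control libraries (log2 0.39, SE 0.090, adjusted p = 0.00399), and rescue and knockout overlapped (log2 -0.12, adjusted p = 0.345). EIF1AD overlaps BANF1 on the opposite strand, which also rose (log2 0.37, adjusted p = 2.02e-04); whether strand was used in counting is not stated. EIF1AX, which encodes eIF1A, differed by -0.15 (adjusted p = 0.0656) and EIF1B by -0.11 (adjusted p = 0.209).

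Of the 3 subunits of eIF2, 1 fell in knockout and 0 rose, where 13.5% of all genes tested fell and 26.2% rose. EIF2S3 (chromosome X, 24054716 to 24077971, plus strand), the gamma subunit that binds GTP and the initiator tRNA, had a signal of 196 and 203 in rescue, 135 and 141 in knockout, and 197 and 186 in control. The knockout libraries stood apart from the other 4, at 0.719 times the control mean (log2 -0.47, SE 0.054, adjusted p = 1.7e-05). EIF2S1, the alpha subunit that stress kinases phosphorylate, had 37.5 and 36.7 in rescue, 32.0 and 31.1 in knockout, and 35.8 and 33.1 in control, a log2 difference of -0.12 that did not pass (adjusted p = 0.142). EIF2S2, the beta subunit, had 83.0 and 86.0 in rescue, 86.2 and 84.4 in knockout, and 83.3 and 79.6 in control, with knockout above control but not past the threshold (log2 0.07, adjusted p = 0.363). Within each library, the signal of EIF2S2 was 0.422 and 0.424 times that of EIF2S3 in rescue, 0.638 and 0.600 times in knockout, and 0.422 and 0.427 times in control. Both knockout ratios lay above the other 4. With 2 libraries against 2, an exact two-sided permutation test of such a ratio cannot go below p = 0.333.

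Of the 5 eIF2B subunits, which exchange GDP for GTP on eIF2, EIF2B3 and EIF2B5 fell, where 13.5% of all genes tested did. These encode the gamma and epsilon subunits of the catalytic part. EIF2B3 had a signal of 21.5 and 22.2 in rescue, 17.1 and 17.3 in knockout, and 22.1 and 19.6 in control (log2 -0.26, adjusted p = 0.0129). EIF2B5 had 36.8 and 36.9 in rescue, 31.6 and 28.4 in knockout, and 36.2 and 35.0 in control (log2 -0.24, adjusted p = 0.0106). The knockout libraries were the lowest for both genes, but the EIF2B3 call was lost without knockout library 1 (log2 -0.25, adjusted p = 0.067) and the EIF2B5 call without knockout library 2 (-0.17, adjusted p = 0.188). The regulatory subunits EIF2B1, EIF2B2 and EIF2B4 had log2 differences of -0.00, 0.18 and 0.17 with adjusted p of 0.981, 0.10 and 0.0672. EIF2A and EIF2D, which can deliver initiator tRNA without eIF2, had -0.10 and -0.03 (adjusted p of 0.174 and 0.773).

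In the eIF3 complex, 6 of 13 coding genes fell in knockout and 0 rose, where 13.5% of all genes tested fell and 26.2% rose. EIF3K (chromosome 19, 38619082 to 38636955, plus strand), a peripheral subunit, had a signal of 153 and 154 in rescue, 112 and 104 in knockout, and 158 and 157 in control. Knockout was 0.689 times the control mean and below the other 4 libraries (log2 -0.53, SE 0.055, adjusted p = 6.98e-06). EIF3L (chromosome 22, 37848868 to 37889407, plus strand), which pairs with eIF3k in the complex, had 135 and 134 in rescue, 104 and 105 in knockout, and 141 and 131 in control (log2 -0.38, SE 0.055, adjusted p = 0.000122). EIF3J (chromosome 15, 44537057 to 44563029, plus strand), a loosely bound subunit, had 72.6 and 75.1 in rescue, 58.2 and 56.9 in knockout, and 74.7 and 69.5 in control (log2 -0.32, SE 0.059, adjusted p = 0.000764). For all 3 the knockout libraries were the lowest. EIF3J overlaps SPG11 on the opposite strand, which also fell (log2 -0.21, adjusted p = 0.0261), and strand use in counting is not stated.

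EIF3E, EIF3H and EIF3D fell by less. EIF3E, the eIF3 gene with the highest signal, had 332 and 334 in rescue, 285 and 286 in knockout, and 336 and 318 in control (log2 -0.20, adjusted p = 0.00697). EIF3H, a subunit with an MPN domain, had 199 and 205 in rescue, 176 and 166 in knockout, and 200 and 190 in control (log2 -0.19, adjusted p = 0.0132). EIF3D, which can bind the cap of some messengers, had 109 and 111 in rescue, 98.9 and 93.7 in knockout, and 110 and 105 in control (log2 -0.15, adjusted p = 0.040). Knockout and control did not overlap for these genes, yet the EIF3H call was lost without control 1 or knockout 2 (log2 -0.15 in both, adjusted p of 0.0501 and 0.134), and that of EIF3D without any library other than control 2 (log2 from -0.19 to -0.12, adjusted p from 0.0658 to 0.301). The module of EIF3B, EIF3G and EIF3I had 0 of 3 genes past the threshold, with differences of -0.11, -0.04 and -0.01. EIF3F, EIF3M and EIF3A had -0.10, -0.06 and 0.05, and EIF3CL had -0.01, with adjusted p from 0.179 to 0.875. EIF3CL is a near-identical copy of EIF3C, which was not analysed here, so its reads may be those of both. Subunits of the same complex thus spanned log2 differences from -0.53 to 0.05.

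The genes of eIF4F and its partners moved in both directions, often within a family of paralogs. EIF4G3 (chromosome 1, 20806292 to 21176888, minus strand), a paralog of the scaffold eIF4G1, was the factor gene with the largest fall. Its signal was 33.8 and 35.7 in rescue, 22.2 and 22.6 in knockout, and 36.9 and 32.8 in control. Knockout stood apart, at 0.643 times the control mean (log2 -0.61, SE 0.071, adjusted p = 1.83e-05). EIF4G1, the main scaffold, had 154 and 157 in rescue, 128 and 120 in knockout, and 147 and 134 in control (log2 -0.18, adjusted p = 0.026), with knockout lowest. EIF4G2 (chromosome 11, 10797050 to 10809110, minus strand), a shorter relative that lacks the eIF4E binding site, rose, with 206 and 216 in rescue, 226 and 219 in knockout, and 197 and 183 in control (log2 0.23, adjusted p = 0.0049). Rescue lay between the others for EIF4G2, above control and below knockout in all libraries. EIF4G2 overlaps CTR9 on the opposite strand, which also rose (log2 0.38, adjusted p = 6.0e-04), and strand use in counting is not stated.

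The eIF4A helicases also differed in direction. EIF4A2 (chromosome 3, 186783205 to 186789900, plus strand) fell, with a signal of 167 and 164 in rescue, 135 and 139 in knockout, and 176 and 166 in control (log2 -0.32, SE 0.053, adjusted p = 0.000406). EIF4A3 (chromosome 17, 80135214 to 80147183, minus strand), the helicase of the exon junction complex rather than of initiation, rose, with 80.1 and 84.9 in rescue, 98.5 and 94.0 in knockout, and 73.8 and 71.8 in control (log2 0.40, SE 0.057, adjusted p = 0.000114). The groups overlapped for neither gene between knockout and control. EIF4A1, the most abundant helicase of the 3, had 329 and 343 in rescue, 303 and 301 in knockout, and 308 and 288 in control, and knockout and control overlapped (log2 0.02, adjusted p = 0.768). EIF4A1 shares sequence with a read-through transcript, SENP3-EIF4A1, and counts between them are uncertain.

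Of the cap-binding proteins, EIF4E fell and EIF4E2 rose. EIF4E, the cap-binding subunit of eIF4F, had a signal of 16.7 and 17.6 in rescue, 13.3 and 13.1 in knockout, and 17.1 and 15.3 in control (log2 -0.27, adjusted p = 0.0128). EIF4E2 (chromosome 2, 232550052 to 232583644, plus strand), a cap-binding relative known for translational repression, had 13.5 and 13.4 in rescue, 16.4 and 15.3 in knockout, and 12.5 and 11.8 in control (log2 0.36, SE 0.076, adjusted p = 0.00217). The 2 knockout libraries were the lowest of all for EIF4E and the highest of all for EIF4E2. Of the inhibitors that hold eIF4E, EIF4EBP1 fell, with 147 and 147 in rescue, 128 and 114 in knockout, and 152 and 138 in control (log2 -0.26, adjusted p = 0.00565). EIF4EBP2 rose, with 39.5 and 39.8 in rescue, 41.2 and 41.2 in knockout, and 36.9 and 33.5 in control (log2 0.22, adjusted p = 0.0136). EIF4EBP3 was too low to place, with signals from 0.727 to 2.41 (log2 0.07, SE 0.251, adjusted p = 0.857). EIF4B, EIF4H, EIF4E3 and EIF4ENIF1 had differences of -0.01, 0.05, 0.05 and -0.01, with adjusted p from 0.551 to 0.973. Some calls were lost without 1 library, with the sign kept. Those of EIF4E without knockout 1 or 2 (log2 -0.28 and -0.26, adjusted p of 0.0526 and 0.0746) and of EIF4EBP2 without knockout 1 or 2 (0.22 in both, adjusted p of 0.069 and 0.0656) were lost at about the same log2 difference. EIF4G1 had -0.11 without control 1 and -0.14 without knockout 2 (adjusted p of 0.106 and 0.189), and EIF4EBP1 -0.19 and -0.18 without the same libraries (adjusted p of 0.0663 and 0.0754).

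**Figure D2:**
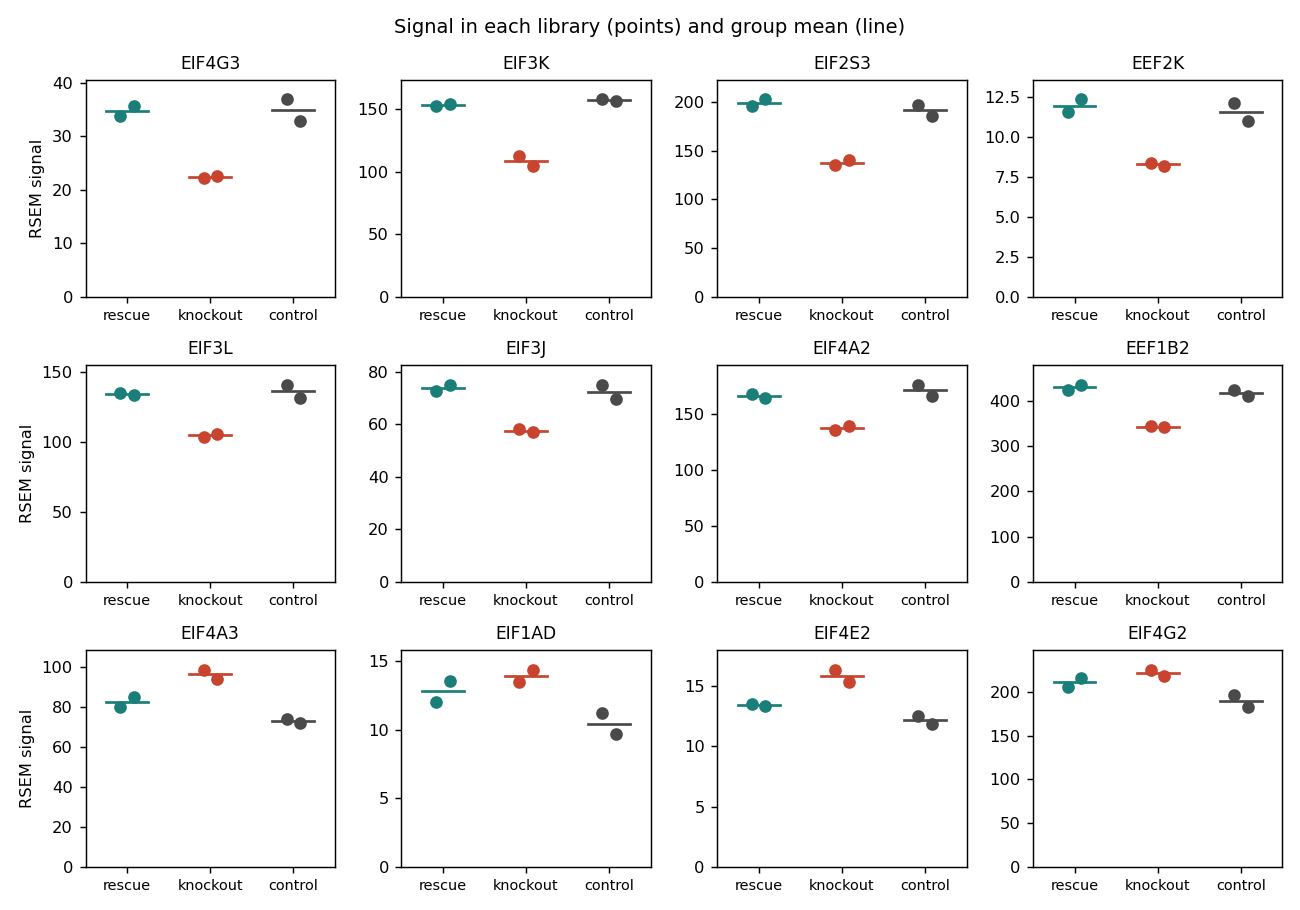
RSEM signal on the y axis for 12 translation factor genes, with 1 point per library and a line at the mean of the 2 libraries of rescue, knockout and control. The 8 genes of the upper rows are lowest in both knockout libraries, and EIF4A3, EIF4E2 and EIF4G2 are highest there, while EIF1AD overlaps between rescue and knockout.

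Within each library, ratios of eIF4 paralogs put the knockout apart from the other 4 libraries. EIF4A3 over EIF4A2 was 0.479 and 0.516 in rescue, 0.729 and 0.676 in knockout, and 0.419 and 0.434 in control. EIF4E2 over EIF4E was 0.807 and 0.758 in rescue, 1.23 and 1.17 in knockout, and 0.731 and 0.771 in control. In knockout, then, EIF4E2 exceeded EIF4E in signal per length, and in the other groups it did not. EIF4G2 over EIF4G3 was 6.10 and 6.05 in rescue, 10.2 and 9.69 in knockout, and 5.34 and 5.58 in control. EIF4EBP2 over EIF4EBP1 was 0.269 and 0.271 in rescue, 0.323 and 0.363 in knockout, and 0.244 and 0.243 in control. A ratio shows that its genes changed unequally, not which of them changed, and the pairs were chosen for their opposite calls, so the ratios describe these libraries and carry no test.

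**Figure D3:**
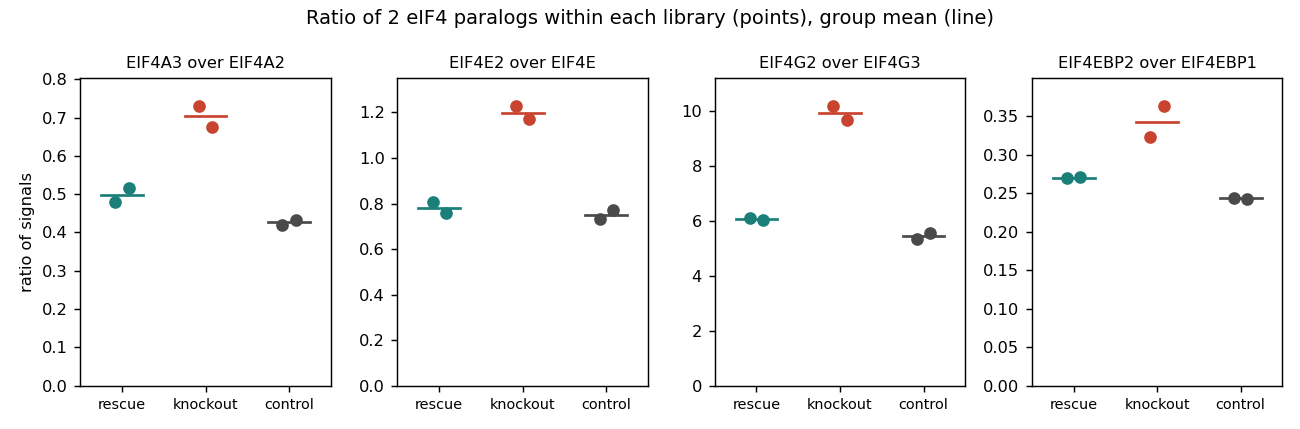
Ratio of the signals of 2 eIF4 paralogs within a library, for 4 pairs, with 1 point per library and a line at the group mean. In each pair both knockout points lie above all points of rescue and control; EIF4A3 over EIF4A2 is 0.729 and 0.676 in knockout, against 0.419 and 0.434 in control.

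Of the 6 genes with an EIF5 or EIF6 symbol, which act at several steps, 1 fell in knockout and 0 rose. That is 16.7% lower, near the share of all genes tested, of which 13.5% fell and 26.2% rose. EIF5, the GTPase activator of eIF2, had a signal of 52.0 and 51.7 in rescue, 44.7 and 42.2 in knockout, and 51.9 and 48.7 in control (log2 -0.21, adjusted p = 0.0159), with knockout lowest; without knockout library 2 the log2 difference was -0.17 (adjusted p = 0.165). EIF5A, the hypusine-bearing factor that relieves stalled ribosomes, had 293 and 281 in rescue, 241 and 231 in knockout, and 254 and 233 in control. Knockout and control overlapped (log2 -0.04, adjusted p = 0.583). EIF5B, the GTPase of subunit joining, and EIF6, which keeps the large subunit from joining early, had -0.11 and -0.14 (adjusted p of 0.134 and 0.172). EIF5A2 and EIF5AL1, relatives of EIF5A, had -0.13 and -0.19; EIF5AL1 is so close in sequence to EIF5A that reads may be split between them.

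EEF1A1, EEF2, EEF1G and EEF1B2 were the 4 genes with the highest signal, and all but the first of them fell in knockout, EEF2 and EEF1G not under quantile normalization. The 5 genes of eEF1 and eEF2 summed to 4064 and 4109 in rescue, 3514 and 3407 in knockout, and 4029 and 3819 in control, which was 45.7% to 47.1% of the summed signal of all 62 genes. Of these 5, 4 fell and EEF1A1 did not pass, where 13.5% of all genes tested fell. EEF1A1, which brings aminoacyl-tRNA to the ribosome, had 1784 and 1786 in rescue, 1571 and 1500 in knockout, and 1717 and 1627 in control. The groups did not overlap, but the log2 difference of -0.12 missed the threshold (SE 0.054, adjusted p = 0.0844). Over the 14 other settings that difference ran from -0.19 to 0.014. EEF2, the translocase, had 1061 and 1078 in rescue, 909 and 891 in knockout, and 1082 and 1015 in control (log2 -0.22, adjusted p = 0.00459), with both knockout libraries below the other 4. The call of EEF2 was lost under quantile normalization (log2 -0.0079, adjusted p = 0.747).

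The exchange complex that reloads eEF1A with GTP fell in all 3 subunits measured, except that EEF1G did not under quantile normalization. EEF1B2, its catalytic subunit, had a signal of 426 and 437 in rescue, 345 and 342 in knockout, and 425 and 411 in control (log2 -0.28, adjusted p = 0.000542). EEF1G, the gamma subunit, had 717 and 734 in rescue, 620 and 616 in knockout, and 729 and 695 in control (log2 -0.20, adjusted p = 0.00569), and under quantile normalization its difference turned to 0.014 (adjusted p = 0.595). EEF1D, the delta subunit, had 76.8 and 74.9 in rescue, 68.8 and 59.1 in knockout, and 75.7 and 71.5 in control (log2 -0.20, adjusted p = 0.0319). Knockout was lowest for each, and the EEF1D call was lost without control 1, control 2 or knockout 2 (log2 -0.16, -0.24 and -0.095, adjusted p of 0.176, 0.0718 and 0.433).

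Enzymes that modify the elongation factors were lowly expressed. EEF2K (chromosome 16, 22206282 to 22288732, plus strand), the kinase that phosphorylates and inhibits eEF2, had a signal of 11.6 and 12.4 in rescue, 8.41 and 8.21 in knockout, and 12.1 and 11.0 in control. It fell to 0.719 times the control mean (log2 -0.43, SE 0.084, adjusted p = 0.00115). EEF1AKMT1, a methyltransferase of eEF1A, had 9.31 and 8.79 in rescue, 7.67 and 8.63 in knockout, and 10.9 and 9.11 in control (log2 -0.26, adjusted p = 0.0446), a call lost without control 1 or knockout 1 (log2 -0.15 and -0.19, adjusted p of 0.22 and 0.30). EEF2KMT, a methyltransferase of eEF2, had 7.44 and 7.15 in rescue, 5.04 and 4.98 in knockout, and 6.94 and 5.14 in control (log2 -0.22, adjusted p = 0.142).

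In rescue cells, translation factor genes were more often higher than lower relative to knockout cells. Of the 60 genes, 30 were higher in rescue than in knockout and 2 were lower, with a median log2 difference of 0.19. Over all genes tested 15.6% were higher and 15.9% lower, with a median of -0.012, and of genes with a mean signal of at least 20, 25.6% were higher and 17.7% lower, against 25 and 1 of 44 factor genes. By complex, 8 of 10 genes of the elongation group, 7 of 14 of eIF3, 4 of 10 of eIF2 and eIF2B and 6 of 15 of eIF4 were higher, and the 2 that were lower, EIF4A3 and EIF4E2, both belonged to eIF4. Of the 8 coding genes of the elongation group 7 were higher, and the other call there was the read-through EEF1E1-BLOC1S5. This comparison and knockout minus control share the knockout libraries, so a gene that stands low in them is low in both.

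**Figure D4:**
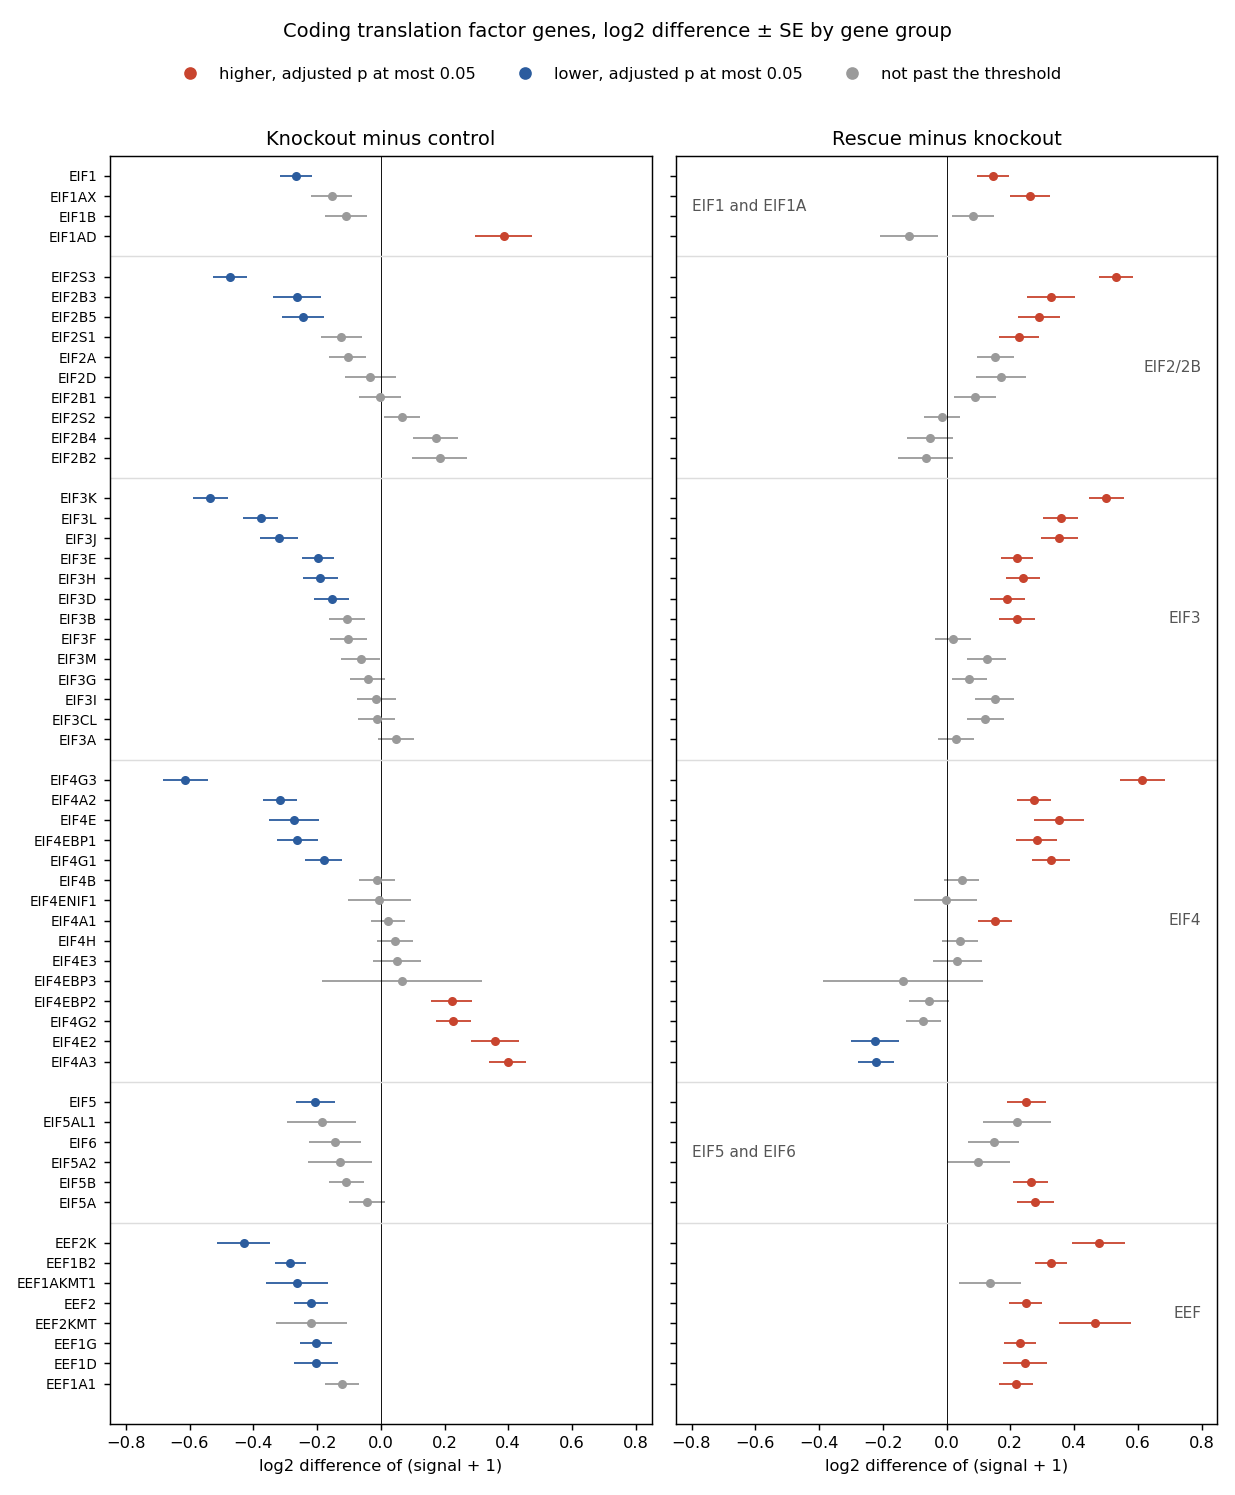
Log2 difference of signal + 1 with its SE for the 56 protein-coding genes, by gene group, in knockout minus control on the left and rescue minus knockout on the right; red is higher and blue lower at an adjusted p of at most 0.05, and grey did not pass. In knockout minus control the EIF2/2B, eIF3, EIF5 and EIF6, and elongation groups hold only blue and grey points. The eIF4 group runs from -0.61 for EIF4G3 to 0.40 for EIF4A3. Under quantile normalization EEF1G turns to 0.014.

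The largest differences between rescue and knockout were those of EIF4G3 (log2 0.61, adjusted p = 3.46e-05), EIF2S3 (0.53, adjusted p = 1.23e-05) and EIF3K (0.50, adjusted p = 2.16e-05), whose signals in rescue were 1.55, 1.45 and 1.42 times those in knockout. EEF2K differed by 0.48 (adjusted p = 0.000828) and EEF2KMT by 0.47 (adjusted p = 0.00661), with both rescue libraries above both knockout libraries. All 5 genes of eEF1 and eEF2 were higher in rescue, EEF1A1 by 0.22 (adjusted p = 0.00738), EEF2 by 0.25 (0.00278), EEF1B2 by 0.33 (0.000291), EEF1G by 0.23 (0.00349) and EEF1D by 0.25 (0.0149); under quantile normalization EEF1G turned to -0.035 (adjusted p = 0.211). Several genes that had not passed against control were higher in rescue than in knockout, among them EIF5A by 0.28 (adjusted p = 0.00217), EIF5B by 0.26 (0.00269), EIF1AX by 0.26 (0.00624), EIF3B by 0.22 (0.00931) and EIF2S1 by 0.23 (0.0154). EIF4A3 and EIF4E2 were lower in rescue, both by -0.22 (adjusted p of 0.00941 and 0.0376), while EIF4G2 and EIF4EBP2 had -0.07 and -0.05 (adjusted p of 0.332 and 0.548).

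Calls in rescue minus knockout were often lost with fewer libraries, and not only those near the threshold. EEF1G and EIF3E, for example, had adjusted p of 0.00349 and 0.00453 with all libraries. The log2 difference stayed about the same for many of these genes and shrank for some. Whichever 1 of the 4 libraries compared was left out, EIF1 (log2 0.14 to 0.15), EIF2S1 (0.21 to 0.25), EIF4A1 (0.12 to 0.18), EIF4E2 (-0.27 to -0.18) and the read-through EEF1E1-BLOC1S5 (0.22 to 0.28, against 0.25 and adjusted p = 0.0355 with all libraries) did not pass, with adjusted p up to 0.257, 0.145, 0.341, 0.312 and 0.243. Without rescue 2, EIF3E and EIF3H had 0.22 each and EEF1G 0.21 (adjusted p of 0.053, 0.0616 and 0.0508). EIF3B, EIF5 and EIF3D were lost without knockout 2, rescue 1 or rescue 2 (adjusted p up to 0.155, 0.0833 and 0.182), with the lowest log2 differences, 0.16, 0.21 and 0.15, without knockout 2. The difference shrank more for EEF1D, to 0.14 without knockout 2 (adjusted p = 0.256), against 0.23 without rescue 1 (0.0713). Without knockout 2, EIF2B5 had 0.22 and EIF4EBP1 0.20 (adjusted p of 0.0983 and 0.0532). EIF4A3 had -0.19 without knockout 1 and -0.18 without rescue 1 (adjusted p of 0.105 and 0.17), and EIF1AX 0.21 without knockout 1 and 0.26 without rescue 2 (0.0917 and 0.0525). Of the 32 genes called, 15 kept their call under each of 14 other settings, and of the 27 called in knockout minus control, 13 did. Those 13 were EEF1B2, EEF2K, EIF1, EIF1AD, EIF2S3, EIF3J, EIF3K, EIF3L, EIF4A2, EIF4A3, EIF4E2, EIF4G2 and EIF4G3.

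Against control, 0 of the 60 factor genes passed in rescue with limma, in either direction, where 0.228% of all genes were higher and 0.055% lower. The median log2 difference was 0.054, against 0.061 over all genes. Of the 60, 11 had an unadjusted limma p of at most 0.05. The share of all genes at that unadjusted p was not counted, so nothing about the factor genes is read from the 11. Among the genes that had fallen in knockout, EIF4G3 differed from control by -0.00 (adjusted p = 0.999), EIF3K by -0.03 (0.849), EIF2S3 by 0.06 (0.716), EEF2K by 0.05 (0.866) and EIF4A2 by -0.04 (0.802). Among those that had risen, EIF4A3 was still 0.18 above control (adjusted p = 0.25) and EIF1AD 0.27 above it (0.272). EIF5A was above control in both rescue libraries (log2 0.24, adjusted p = 0.108), and passed under 5 of the 14 other settings, with adjusted p from 0.0022 to 0.433. A difference that misses the threshold with 2 libraries a group does not show that levels were equal, and control library 2, the one that lay low, enters this comparison.

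Genes that act on these factors were read from lists of partners, whose counts stand beside the 13.5% lower and 26.2% higher of all genes tested in knockout minus control; with 8 to 12 genes a list, no list is set apart from that share here. Of 8 genes for eIF2 kinases, their regulators and the eIF2 phosphatase, 1 rose in knockout and 0 fell. The 1 that rose was EIF2AK3, which encodes the endoplasmic reticulum stress kinase PERK (log2 0.29, adjusted p = 0.0139). The phosphatase subunit PPP1R15A and the activator GCN1 had -0.13 and -0.10 (adjusted p of 0.173 and 0.275). Of 12 tested partners of eIF4F, 3 rose and 3 fell. MKNK2, a kinase of eIF4E, rose by 0.44 (adjusted p = 1.14e-04), PDCD4, an inhibitor of eIF4A, by 0.24 (0.00602), and PABPC1, the poly(A)-binding protein, fell by 0.30 on the log2 scale (6.11e-04), a call lost under quantile normalization (0.198). The others past the threshold, named after their values were seen, were MKNK1, another kinase of eIF4E (0.23, adjusted p = 0.0248), LARP1, which binds the cap of messengers with a pyrimidine tract (-0.18, 0.0229), and CYFIP1, an eIF4E-binding repressor (-0.21, 0.0218). Of 8 scanning, recycling and reinitiation factors, 2 fell, the recycling ATPase ABCE1 (-0.35, adjusted p = 6.79e-04) and the release factor GSPT1 (-0.17, 0.0434), and DENR had 0.10 (0.225). Without 1 library, calls were lost at about the same log2 difference for EIF2AK3 (0.27 without knockout 1 and 0.30 without knockout 2, adjusted p of 0.117 and 0.0777), PDCD4 (0.21 without knockout 2, 0.0760), and MKNK1 and CYFIP1 (0.21 to 0.25 and -0.24 to -0.18 without any knockout or rescue library, up to 0.189 and 0.199). GSPT1 was lost without any library other than control 2 (log2 -0.18 to -0.13, adjusted p from 0.0617 to 0.212), and LARP1 without control 1, knockout 1 or knockout 2 (-0.19 to -0.12, up to 0.112).

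Of 10 genes of the mTORC1 pathway, 3 fell and 1 rose in knockout, where 13.5% of all genes tested fell and 26.2% rose. DDIT4, an inhibitor of mTORC1 induced by stress, had the largest fall in these lists (log2 -0.80, adjusted p = 3.09e-07), and the subunit MLST8 and the kinase RPS6KB2 fell as well (-0.36 and -0.40, adjusted p of 0.00202 and 0.00219). The gene that rose was AKT1S1, an inhibitory subunit also known as PRAS40 (0.36, adjusted p = 0.00593), named after its value was seen. Of 9 genes that modify eIF5A and eEF2, DPH5 of diphthamide synthesis fell (-0.51, adjusted p = 4.66e-04) and DHPS of hypusine synthesis rose (0.29, 0.00307), while DPH6 had -0.23 (0.054). Of 9 mitochondrial translation factors, TSFM and MRRF fell (-0.27 and -0.23, adjusted p of 0.0229 and 0.0227), and MTIF3 had 0.18 (0.0724). TSFM was lost without control 1, knockout 1 or knockout 2 (log2 -0.22, -0.22 and -0.31, adjusted p of 0.0703, 0.189 and 0.0526), and MRRF without any knockout or rescue library (-0.25 to -0.21, 0.0569 to 0.165). In rescue minus knockout, where 15.6% of all genes were higher and 15.9% lower, the mTORC1 list had 3 higher and 0 lower (DDIT4 0.54, RPS6KB2 0.49, MLST8 0.35), and the recycling list 2 higher and 0 lower (ABCE1 0.46, GSPT1 0.28). The eIF4F partners had 3 higher and 2 lower (PABPC1 0.35, LARP1 0.22, CYFIP1 0.19, MKNK2 -0.19, PDCD4 -0.19). The list for eIF5A and eEF2 modification had 2 higher and 1 lower (DPH5 0.43, DPH6 0.28, DHPS -0.18), the mitochondrial list 1 higher and 0 lower (MRRF 0.21), and the eIF2 kinase list 0 higher and 1 lower (EIF2AK3 -0.25). Whichever 1 of the 4 libraries compared was left out, EIF2AK3 (-0.28 to -0.23), MKNK2 (-0.23 to -0.15), PDCD4 (-0.22 to -0.17), CYFIP1 (0.15 to 0.22), DPH6 (0.26 to 0.30), DHPS (-0.22 to -0.14) and MRRF (0.20 to 0.23) no longer passed, with adjusted p up to 0.252, 0.358, 0.25, 0.307, 0.191, 0.348 and 0.257. GSPT1 was lost without rescue 2 (0.27, adjusted p = 0.0559), LARP1 without knockout 2 or rescue 2 (0.21 and 0.19, adjusted p of 0.0602 and 0.141), and PABPC1 under quantile normalization (0.08, adjusted p = 0.125).

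Against control, 0 genes of these lists passed in rescue with limma, where 0.228% of all genes were higher and 0.055% lower. DDIT4 and MKNK2, 2 genes of the lists, had an unadjusted p of at most 0.05, a level at which all genes were not counted. DDIT4 differed by -0.27 (adjusted p = 0.0805) and passed under 6 of the 14 other settings, with adjusted p from 0.00106 to 0.372. MKNK2 differed by 0.25 (adjusted p = 0.122) and passed under 2 of them, with adjusted p from 0.0199 to 0.672.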

How the data were processed

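Per the labels' protocols, RNA of whole cells was freed of ribosomal RNA and read as stranded Illumina TruSeq libraries. STAR, RSEM and GRCh38 were used per the submitters' processing notes; versions, strand use and replicate pooling are not given in the sources used here. The signal is the RSEM abundance as the authors deposited it, per gene and library, TPM or FPKM, without a stated kind. Read totals are not stated, so depth is unknown and no counting interval is given. The table held 0 columns without a sample.

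A gene was tested where 2 or more libraries reached a signal of 1, which kept 12734 genes and dropped 2325. Tests were two-sided and came from limma (version 3.58.1, R version 4.3.3) with its trend option, on log2(signal + 1). The single fit covered the 6 libraries with 1 mean per group and had 3 residual and 11.0 prior degrees of freedom; p-values were adjusted by Benjamini-Hochberg across every tested gene. A pseudocount of 1 understates the change of low genes. The design had left the unit open, and its branch for normalized abundances was used. The fit was tested on simulated data. Python 3.11.15, pandas 2.3.3, numpy 2.4.6 and matplotlib 3.10.9 served the rest.

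The genes, their groups and the partner lists were chosen with earlier results of these data known. Values in all libraries are given for coding genes with a log2 difference of at least 0.3 past the threshold in knockout minus control, for those with the highest mean or smallest p in each complex, and for their paralogs; other genes past the threshold were added after their values were seen. In each partner list, the 3 genes of smallest p are named. Coordinates are from GENCODE release 29 on GRCh38. The other 14 settings were another pseudocount, other filters, centring, quantile normalization, no trend, only the groups compared, a replicate block and leaving out each library.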

Additional observations from a re-analysis of the deposited data

How the results depend on the processing

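In knockout minus control, the 22 genes that fell became 37 under median centring and 35 under quantile normalization, and leaving out 1 library gave 14 to 29 lower and 4 to 7 higher. In rescue minus knockout, leaving out 1 library gave 19 to 34 higher and 0 to 2 lower, and 1 was lower without the trend. In rescue minus control, 1 gene was higher under a mean of at least 5, with only the 2 groups compared, and under the replicate block, and leaving out 1 library gave 0 to 1 higher and 0 to 1 lower. Without the trend the counts were smaller, with 16 lower in knockout minus control and 24 higher in rescue minus knockout, in place of 22 and 30. The calls of EIF3E, EIF3H, EIF3D, EIF4G1, EIF5, EEF1D and EEF1AKMT1 in knockout minus control were among those lost without it (adjusted p from 0.0548 to 0.127). Median log2 differences in knockout minus control under median centring were -0.14 for eIF2 and eIF2B, -0.20 for eIF3, -0.047 for eIF4 and -0.28 for the elongation group, and under quantile normalization -0.13 for eIF2 and eIF2B and -0.19 for eIF3. Without 1 library they ran from -0.13 to -0.0080 for eIF2 and eIF2B, from -0.17 to -0.092 for eIF3, from -0.073 to 0.11 for eIF4 and from -0.27 to -0.15 for the elongation group. In rescue minus knockout the elongation median was 0.18 under quantile normalization, and the eIF3 median ran from 0.15 to 0.21 without 1 library. EEF1G reversed under quantile normalization, to 0.014 in knockout minus control and -0.035 in rescue minus knockout. EEF2 shrank there to -0.0079 in knockout minus control. EEF1A1, not called in knockout minus control, ran from -0.19 to 0.014 over the 14 other settings. Its call in rescue minus knockout was lost without the trend (adjusted p = 0.0527). The cause was not tested for any of these. The labels do not say whether replicate numbers pair the samples. Deviations of library 1 from its group mean correlated across genes at -0.011 (control with knockout), -0.048 (control with rescue) and 0.10 (knockout with rescue). Such correlations cannot settle whether the samples were paired. With the number as a block, 5 factor genes rose and 23 fell in knockout minus control, and 31 were higher and 2 lower in rescue minus knockout. Over all genes, the block took rescue minus control from 29 higher and 7 lower to 299 higher and 83 lower. Precision is limited by 2 libraries a group, an unknown depth and an unstated unit.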

Other observations

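Within the span and on the strand of 7 translation factor genes lie 12 small nucleolar RNAs, all of them tested, of which 1 rose and 0 fell in knockout minus control. Over all genes tested 26.2% rose and 13.5% fell, so the 12 are not set apart by that count. In rescue minus knockout 1 was higher and 0 lower, against 15.6% and 15.9% of all genes. In rescue minus control 1 was higher and 0 lower, against 0.228% and 0.055%. EIF4A2, which fell in knockout, hosts SNORA81, which rose against control (log2 0.45, adjusted p = 0.00408), with a signal of 19.6 and 18.5 in rescue, 22.7 and 18.4 in knockout, and 13.1 and 16.4 in control. The other 3 of that gene, SNORA4, SNORA63 and SNORD2, did not pass, with log2 differences of 0.01, 0.12 and 0.46 (adjusted p of 0.948, 0.511 and 0.116). SNORA19, which lies within EIF3A, had a signal of 3.16 and 3.26 in rescue, 0.553 and 1.63 in knockout, and 0.977 and 0.994 in control. It was higher in rescue than in knockout (log2 1.06, adjusted p = 5.79e-04) and than in control (1.08, adjusted p = 0.0141), while EIF3A differed by 0.03 in rescue minus knockout. The other 10 did not pass in any of the 3 comparisons by limma. How far these libraries recover such short RNAs is not stated, and these pairs were chosen after their values were seen.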
